A study of Sus scrofa with 21 samples.

Results

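The levels of 10 chaperone genes were followed in testis tissue of boars: the HSP110 genes HSPA4, HSPA4L and HSPH1, the HSP70 genes HSPA2, HSPA1L, HSPA8 and HSPA5, the HSP90 genes HSP90AA1 and HSP90AB1, and the cochaperone gene BAG6. They were found by gene symbol among the 25880 genes of the count tables, and all 10 were measured in all 21 libraries. The libraries came from 13 Landrace and 8 Duroc boars, 1 library per boar, from whole testis taken at slaughter of boars in artificial insemination use. Contrast (i) set 4 Landrace boars with high sperm hyperactivity on the day of ejaculation (day 0; L5 to L8) against 4 with low hyperactivity (L1 to L4). Contrast (iii) set 3 Landrace boars with a high change in hyperactivity when semen was stored for 96 h at 18 °C, counted from day 0 (L7, L13 and L15) against 4 with a low change (L2, L9, L10 and L12), so that L2 and L7 serve in both. Among the Duroc boars, D1 to D5 were labelled High and D6, D7 and D9 were labelled Low for hyperactivity on day 0. For every Duroc boar but D5 the study's own table of boars names the opposite group, so no direction is drawn from that contrast, which is called contrast (ii). Hyperactivity was measured in semen, not in the tissue sequenced.

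Chaperones of the HSP70 family bind unfolded stretches of other proteins and release them in a cycle driven by ATP. J-domain proteins start the cycle, and exchange factors, among them the HSP110 proteins, end it by letting go of ADP. HSP90 proteins take over clients such as kinases and receptors at a later stage of folding, with the help of their own cochaperones. The testis has chaperones of its own: HSPA2 is made in meiotic and later male germ cells and is needed for meiosis in male mice, HSPA1L is made in spermatids, and HSPA4L is strongly expressed in germ cells. BAG6 holds newly made membrane proteins and misfolded proteins in the cytosol and is known to stabilise HSPA2 in mouse germ cells. HSPA5 works in the endoplasmic reticulum, not in the cytosol, and BAG6 is not a heat shock protein.

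In the Sscrofa11.1 build, HSPA4 lies on chromosome 2 (chr2:135345724-135391112), HSPA4L on chromosome 8 (chr8:97032179-97088240), HSPH1 on chromosome 11 (chr11:7733874-7759528), HSPA8 on chromosome 9 (chr9:49982278-49986760) and HSPA5 on chromosome 1 (chr1:265930044-265934959). HSPA2 (chr7:88607140-88609947) and HSP90AB1 (chr7:39237299-39250479) share chromosome 7 with BAG6 (chr7:23756897-23768659) and HSPA1L (chr7:23909960-23938678), which are close neighbours there. The annotated span of HSPA1L encloses HSP70.2 (chr7:23925929-23927854), a closely related HSP70 gene. Reads that fit several places were not counted, so the counts of HSPA1L, HSPA2, HSPA8 and both HSP90 genes leave out what they share with their close relatives and are uncertain to that extent. HSP90AA1 is given without a chromosome in the annotation used.

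The libraries held from 47988011 to 97059970 counts on genes in the Landrace boars and from 41358671 to 125576407 in the Duroc boars. Levels below are in CPM, a gene's count scaled to a library of standard size, normalised over all 21 libraries by TMM, a scaling on the bulk of genes. They compare boars for 1 gene and do not rank genes, since transcript lengths were not used. Boars L8 and D2 stood apart by the lowest scaling factors, 0.846 and 0.862, and L13 by the lowest summed level of elongating spermatid markers, 7676 CPM against 10290 to 18080 CPM in the other Landrace boars. In bulk tissue, fewer cells of a type and less RNA per cell cannot be told apart, so no level here belongs to a germ cell stage by itself.

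In contrast (i) HSPA4 was higher in the high hyperactivity group, and HSPA2 and BAG6 were lower. The other 7 genes did not pass the test. Of the other HSP110 genes, HSPA4L and HSPH1 had fold changes above 1 without passing the test. The test was edgeR's quasi-likelihood test over 12979 genes with Benjamini-Hochberg adjusted p, and a gene was called where that p was under 0.05. Of the 10 genes 3 were called, beside 20.7% of all genes tested. HSPA4 was the 1 called higher, where 4.82% of all genes were, and 2 were called lower, where 15.8% were.

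**Figure D1:**
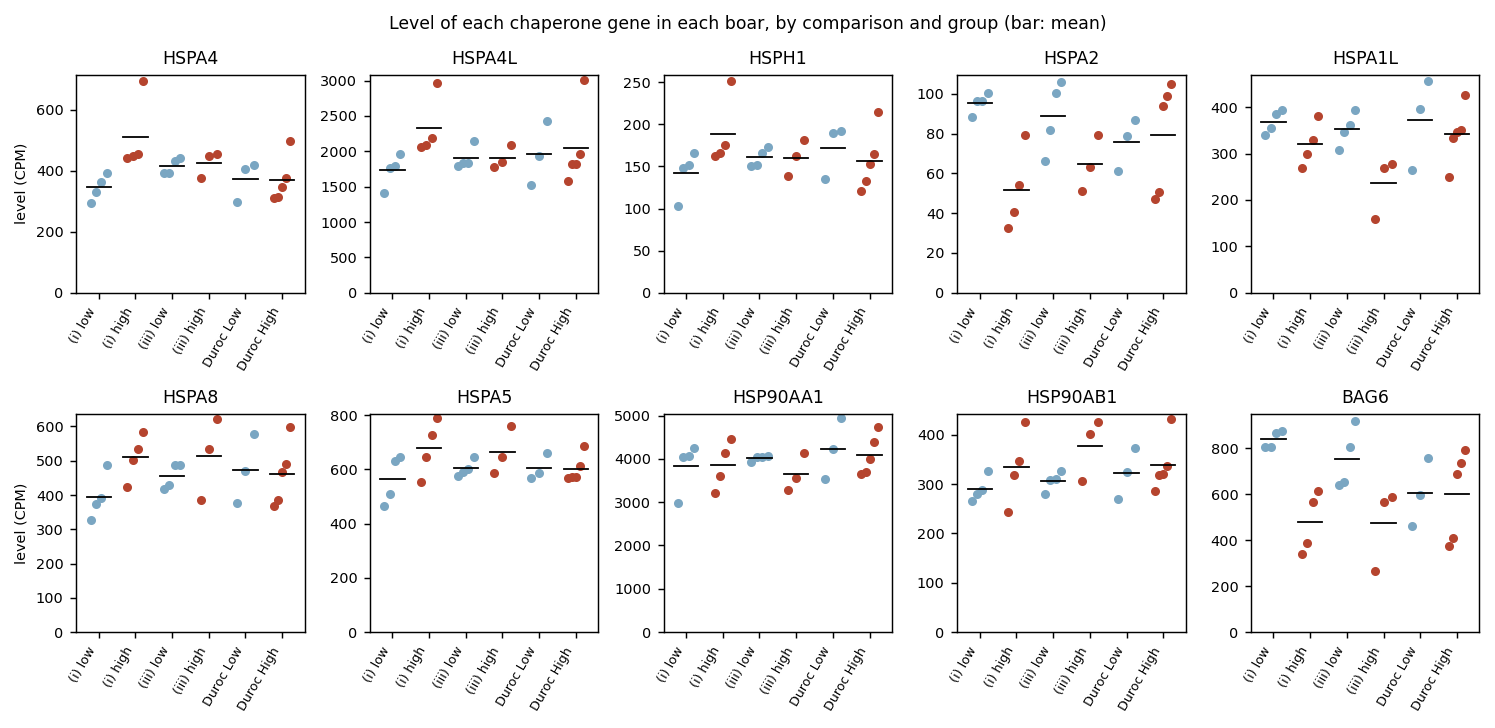
Level of each of the 10 genes in CPM (vertical axes, each from 0), 1 point per boar, in the low and high groups of contrasts (i) and (iii) and of the Duroc boars by their labels, with a bar at the mean. L2 and L7 appear in both Landrace contrasts, and the low points of HSPA2 and BAG6 in the high group of (i), at 32.7 to 79.4 CPM and 338 to 614 CPM, lie under all points of the low group.

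HSPA4, an HSP110 exchange factor of HSP70, stood at 361, 393, 294.5 and 331 CPM in the low boars L1 to L4. In the high boars L5 to L8 it stood at 453, 441, 447 and 695 CPM. The groups did not overlap, with L8 far above the other high boars, and the means were 508.8 ± 124 CPM (SD, n = 4) and 345.0 ± 42.2 CPM (SD, n = 4). The fitted difference was 0.57 on the log2 scale (SE 0.17), a 1.49-fold higher level, with an adjusted p of 0.0359 in edgeR. Without L8 it was 0.41, with an adjusted p of 0.0568.

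HSPA4L, the HSP110 gene of germ cells, had levels of 1763, 1797, 1406 and 1966 CPM in the low boars and of 2060, 2187, 2093 and 2972 CPM in the high boars. Its groups did not overlap either, yet its difference of 0.44 (log2, SE 0.16, 95% interval 0.09 to 0.79) had an adjusted p of 0.0675 in edgeR. HSPH1, the third HSP110 gene, ranged from 103 to 166.5 CPM in the low boars and from 162 to 252 CPM in the high boars. Its difference was 0.42 (log2, SE 0.18, adjusted p = 0.102 in edgeR). The low boar L1 reached into the range of the high boars on the scaling over 21 libraries, while the groups were apart on the scaling over the 8 libraries of the contrast. In all 3 HSP110 genes L8 was the highest and L3 the lowest of the 8 boars.

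HSPA2, the HSP70 of meiotic and later germ cells, was lower in the high group. It stood at 88.5, 100.6, 96.2 and 96.2 CPM in L1 to L4 and at 54.0, 40.7, 79.4 and 32.7 CPM in L5 to L8. The low boars lay close together, at 95.4 ± 5.01 CPM (SD, n = 4), and the high boars were spread, at 51.7 ± 20.4 CPM (SD, n = 4), all under the lowest low boar. The difference was -0.86 on the log2 scale (SE 0.24, adjusted p = 0.0324 in edgeR), which puts the low group 1.81-fold higher. The spermatocyte markers, given below, went the other way.

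BAG6 had levels of 804, 806, 872 and 868 CPM in the low boars and of 614, 387, 567 and 338 CPM in the high boars. Again the low boars were alike, at 838 ± 37.6 CPM (SD, n = 4), and the high boars lay apart from them and from each other, at 476 ± 135 CPM (SD, n = 4). The difference was -0.79 (log2, SE 0.20, adjusted p = 0.0237 in edgeR), and the low group was 1.73-fold higher. For HSPA4, HSPA4L, HSPA2 and BAG6, the two-sided exact permutation test of the mean log2 levels gave p = 0.0286, the smallest that the 70 assignments of 8 boars allow and the value of every gene whose groups do not overlap.

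The other HSP70 genes had smaller differences. HSPA8, the constitutive HSP70 of all cells, ranged from 328 to 486 CPM in the low boars and from 424 to 584.5 CPM in the high boars, with overlap, and its difference was 0.39 (log2, SE 0.15, adjusted p = 0.0786 in edgeR). HSPA5, the HSP70 of the endoplasmic reticulum, had a difference of 0.28 (log2, 95% interval -0.05 to 0.61). HSPA1L, the HSP70 of spermatids, had one of -0.19 (log2, 95% interval -0.48 to 0.11). Neither passed the test, and the interval of HSPA5 reached the size of the difference called in HSPA4.

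Levels of the HSP90 genes overlapped widely. HSP90AA1, the inducible cytosolic form, lay between 2989 and 4256 CPM in the low boars and between 3222 and 4467 CPM in the high boars, with a difference of 0.02 (log2, 95% interval -0.34 to 0.38). HSP90AB1, the constitutive form, lay between 266 and 327.5 CPM and between 243 and 425 CPM, with a difference of 0.22 (log2, 95% interval -0.14 to 0.58). Over all 10 genes the median log2 fold change was 0.25, with 7 above 0 and 3 below, and over all genes tested it was 0.03. Groups did not overlap for 5 of the 10 genes on the scaling over the 8 libraries, beside 29.1% of all genes.

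**Figure D2:**
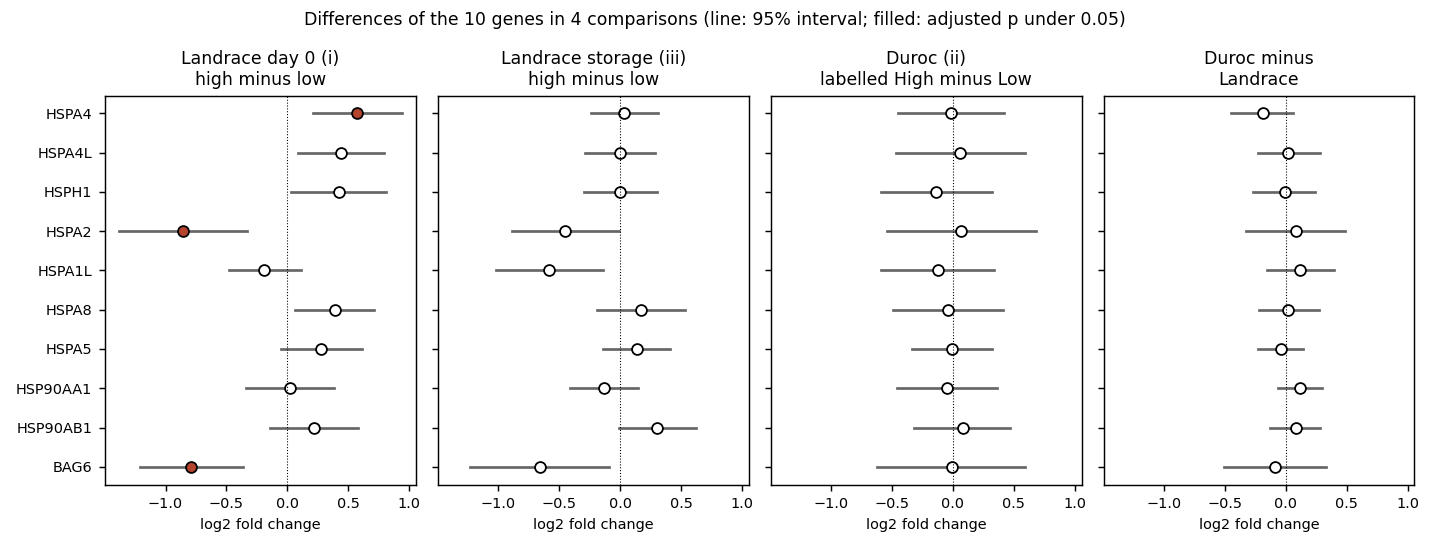
Log2 fold change of the 10 genes (horizontal axes) in 4 comparisons, with 95% intervals as lines, filled points for adjusted p under 0.05 in edgeR's quasi-likelihood test and open points otherwise. HSPA4 at 0.57, HSPA2 at -0.86 and BAG6 at -0.79 in contrast (i) are the filled points, and none is filled in the other comparisons.

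The ratio of HSPA4 to HSPA2 within a library does not depend on how libraries are scaled. It ran from 3.06 to 4.08 in the low boars and from 5.62 to 21.3 in the high boars, and is given as a description. Its groups could not overlap, since neither gene's groups did and the genes moved in opposite directions. The ratio of BAG6 to HSPA2 ran from 8.02 to 9.09 in the low boars and from 7.15 to 11.4 in the high boars, with overlap.

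The 3 called differences kept their sign whichever boar was left out, and their calls did not all hold. Leaving out 1 boar at a time, BAG6 kept its call in 6 of 8 fits (lost without L3, adjusted p = 0.0504, and without L6, adjusted p = 0.0579, in edgeR), HSPA2 in 4 (lost without L1, L3, L6 and L8) and HSPA4 in 3 (lost without L1, L3, L4, L6 and L8). Over these fits the log2 difference ran from -0.93 to -0.64 for BAG6, from -1.16 to -0.68 for HSPA2 and from 0.41 to 0.64 for HSPA4. The share of reads not mapped uniquely was 5.83% to 7.20% in the high boars and 7.53% to 7.92% in the low boars, without overlap, so that it and the group cannot be told apart, and with that share as a term the differences were 0.12 for HSPA4, -0.16 for HSPA2 and -0.17 for BAG6 (log2, adjusted p = 1 for each in edgeR).

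Germ cell markers moved with these genes, and their part in the result was not tested. Of the elongating spermatid markers, 5 of 10 were called lower in the high group (median log2 fold change -0.47), among them the protamine genes PRM1 at -0.70 and PRM3 at -1.52, while PRM2 was at -0.21. Of the abundant genes, TNP1, a transition protein gene, at 0.21, and AKAP4 and ODF1, of the sperm tail, at 0.31 and 0.07, were above 0 and not called. Besides PRM1, the abundant genes ODF2, at -0.65 and called, and OAZ3, at -0.28 and not called, were below 0. Apart from PRM1, these abundant genes were named after their values were seen. Of the round spermatid markers, 4 of 9 tested were called lower (median -0.41), with the acrosomal genes ACRV1 at 0.46 and SPACA1 at 0.39, both not called, and SPACA3 at -0.75, called. The spermatocyte markers had fold changes above 1 in 9 of 9 tested (median 0.43), and 1 was called higher, with the synaptonemal complex genes SYCP1, SYCP2 and SYCP3 at 0.48, 0.41 and 0.54, none of them called. Summed levels of the spermatocyte list were 1462 to 1820 CPM in the low boars and 1813 to 2753 CPM in the high boars, and those of the elongating spermatid list were 13410 to 18040 CPM and 13450 to 18080 CPM.

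Markers of other cells were measured for the same boars. None of the tested markers of spermatogonia (5), Sertoli cells (8), Leydig cells (7), endothelial cells (5) or leukocytes (3) was called, and 2 of 5 peritubular markers and 1 red blood cell marker, HBB at -2.53, were called lower. The median log2 fold changes were -0.15 for spermatogonia, -0.19 for Sertoli cells, 0.32 for Leydig cells, -0.98 for peritubular cells, -0.19 for endothelial cells and 0.14 for leukocytes. Summed levels in the low and high groups were 921 to 1414 CPM and 703 to 1159 CPM for Sertoli cells and 113 to 216.5 CPM and 84.4 to 138 CPM for peritubular cells. NANOS2, a spermatogonial stem cell marker, and AMH, a marker of immature Sertoli cells, had no counts in any library, and 4 leukocyte markers (CSF1R, CD14, CD3E and MS4A1) stayed under 1 CPM in all of them.

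Among 102 genes of 8 lists of chaperones and partners outside the 10 genes, 29 were called in contrast (i), a share of 28.4% beside 20.7% of all genes. Of the partners of BAG6, 5 of 9 measured were called lower, beside 15.8% of all genes. BAG6 works in a complex that passes tail-anchored membrane proteins from the cochaperone SGTA to the ATPase GET3, with GET4 and a UBL4 protein as its other subunits, and RNF126 tags what cannot be delivered. Of these 9 genes none was called higher, and the median log2 fold change was -0.83. SGTA, GET3, GET4, UBL4B and RNF126 were those called lower. UBL4B, the germ cell form of the UBL4 subunit, had the smallest p of the list, at -1.76 (SE 0.33, adjusted p = 0.0208 in edgeR), and GET3 the smallest of the called differences, at -0.83. GET4 at -1.48, RNF126 at -1.38 and SGTA at -1.17 were named after their values were seen. GET4 and RNF126 were at low levels, with means of 1.21 and 3.69 CPM in the high group. The genes of the receptor in the membrane, GET1 at 0.22 and CAMLG at 0.26, and the SGTA relative SGTB at 0.44 did not pass the test.

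**Figure D3:**
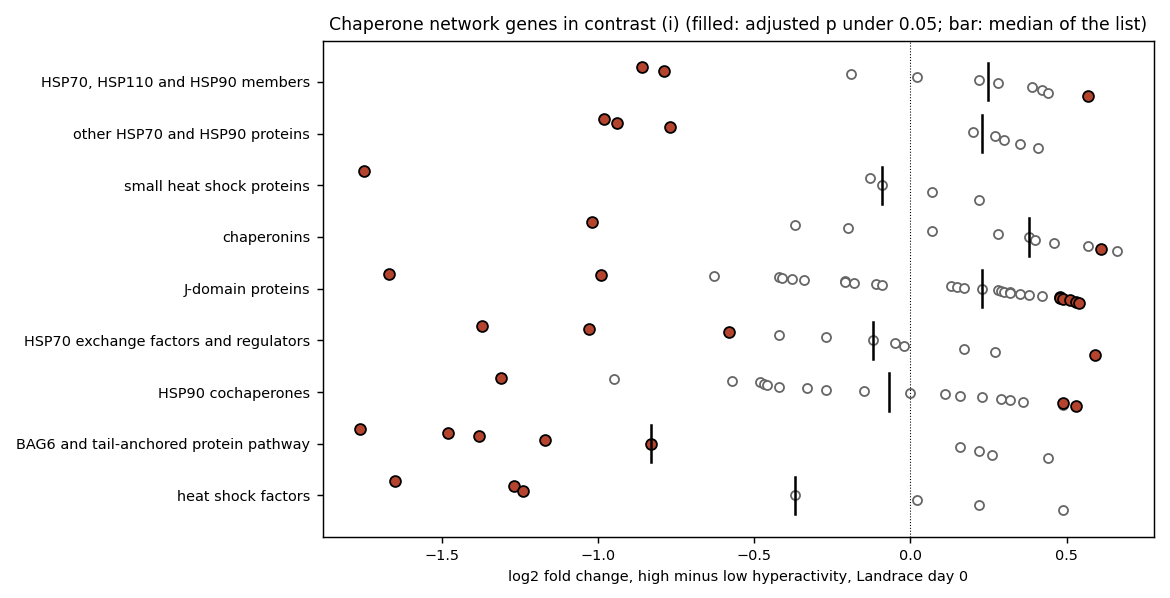
Log2 fold change in contrast (i), high minus low, of every tested gene of 9 lists of chaperones and their partners, 1 point per gene, filled where adjusted p was under 0.05, with a bar at the median of each list. The list of the BAG6 pathway has its median at -0.83, with 5 filled points below 0 and 4 open points above 0.

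Among the exchange factors and regulators of HSP70, 3 of 11 were called lower and 1 higher (median -0.12), or 36.4% in all beside 20.7% of all genes. HSPBP1, an exchange factor, had the lowest value and the smallest p, at -1.37 (adjusted p = 0.0227 in edgeR), at a mean of 1.60 CPM in the high group. ST13, which holds HSP70 in its ADP state, was the gene called higher, at 0.59. Also called lower were STUB1, a ubiquitin ligase that works on chaperone clients, at -1.03 and SIL1, the exchange factor of HSPA5, at -0.58, both named after their values were seen.

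Of 31 J-domain genes tested, 6 were called higher and 2 lower (median 0.23), a share of 25.8% near the 20.7% of all genes. By direction the calls of this list leaned higher, while of all genes 4.82% were called higher and 15.8% lower. DNAJB8, a testis-rich J-domain gene, had the smallest p and the lowest value, at -1.67 (adjusted p = 0.0208 in edgeR), and DNAJA2, a cytosolic partner of HSP70, the highest called value, at 0.54. The range over the list was from -1.67 to 0.54. The 6 genes called higher lay between 0.48 and 0.54.

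Of the HSP90 cochaperones 2 of 20 were called higher and 1 lower (median -0.07), a share of 15% that was under the 20.7% of all genes. RPAP3, part of the R2TP complex that works with HSP90, was at 0.53 (adjusted p = 0.0353 in edgeR), and FLCN, the folliculin gene, at -1.31 (adjusted p = 0.0283 in edgeR) at a mean of 1.06 CPM in the high group. Among the chaperonins 1 of 11 was called higher, CCT8, a subunit of the cytosolic TRiC ring, at 0.61, and 1 lower, its testis relative CCT8L2, at -1.02. The median of that list was 0.38, and its share called was 18.2%, near that of all genes.

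The remaining lists held called genes in the lower direction only, in which 15.8% of all genes were called. Of the other HSP70 and HSP90 proteins 3 of 8 were called lower, with the list's median at 0.23. They were HYOU1, the large HSP70 of the endoplasmic reticulum, at -0.77 with the smallest p, the mitochondrial HSP90 gene TRAP1 at -0.94, and HSPA12B at -0.98. HSPA12B was at a low level, with means of 1.06 CPM in the high group and 2.09 CPM in the low group. Its groups overlapped, and its adjusted p was 0.0486 in edgeR. Of the small heat shock proteins 1 of 5 was called, the testis gene HSPB9 at -1.75 (adjusted p = 0.0209 in edgeR), with the median at -0.09. The list of heat shock factors, which switch chaperone genes on, also held HSF2BP, at -0.37, and HSBP1L1, at 0.02, which are not such factors. Of its 7 entries 3 were called lower (median -0.37): HSF1 at -1.24 and HSF4 under both of its identifiers, at -1.65 and -1.27. HSF2 was at 0.49 with an adjusted p of 0.0639 in edgeR.

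Contrast (iii) asked whether the change in hyperactivity over storage goes with other levels. None of the 10 genes was called by edgeR's quasi-likelihood test, its likelihood ratio test or DESeq2. In 3 of them the unadjusted p of the quasi-likelihood test was under 0.05, as it was in 19.8% of all genes. The quasi-likelihood test called none of 12824 genes, which is 0%, with the lowest adjusted p at 0.24. The HSP110 genes had differences of 0.03 for HSPA4 (95% interval -0.24 to 0.31), 0.00 for HSPA4L (-0.29 to 0.29) and 0.00 for HSPH1 (-0.30 to 0.30) on the log2 scale. The groups did not overlap in HSPA1L and BAG6, nor in 16.3% of all genes, so this alone does not set the 10 genes apart.

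HSPA1L stood at 393, 362, 347 and 308 CPM in the boars with a low change, L2, L9, L10 and L12, and at 270, 160 and 277 CPM in those with a high change, L7, L13 and L15. L13 was by far the lowest, and all high boars lay below the low boars. The difference was -0.58 on the log2 scale (SE 0.20, adjusted p = 0.24 in edgeR), and without L13 it was -0.35 (adjusted p = 0.606 in edgeR).

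BAG6 stood at 806, 652, 638 and 917 CPM in the boars with a low change and at 567, 264 and 590 CPM in those with a high change. The difference was -0.66 (log2, SE 0.26, adjusted p = 0.24 in edgeR), and -0.36 without L13 (adjusted p = 0.606 in edgeR). For both genes the two-sided exact permutation test gave p = 0.0286, the smallest that 35 assignments allow. L2 and L7 also serve in contrast (i), and without both of them the differences in contrast (iii) were -0.66 for HSPA1L and -0.80 for BAG6.

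HSPA2 ranged from 66.3 to 106 CPM in the low boars and from 51.0 to 79.4 CPM in the high boars, with overlap, and its difference was -0.45 (log2, SE 0.20, adjusted p = 0.247 in edgeR). HSP90AB1 was at 0.30 (95% interval -0.01 to 0.62), HSPA8 at 0.17 (-0.19 to 0.53), HSPA5 at 0.14 (-0.14 to 0.41) and HSP90AA1 at -0.13 (-0.41 to 0.15) on the log2 scale. The elongating spermatid markers had fold changes below 1 in 10 of 10, none called, with a median of -0.68, and their summed level was 7676 to 14790 CPM in the high boars and 14970 to 17790 CPM in the low boars. Of the other marker lists none had a call. Their median log2 fold changes were -0.35 for round spermatids, -0.01 for spermatocytes, 0.19 for spermatogonia, 0.16 for Sertoli cells and 0.57 for Leydig cells. They were 0.1 for peritubular cells, 0.59 for endothelial cells, 0.8 for leukocytes and -1.2 for the red blood cell marker. The part of all these markers in the HSPA1L and BAG6 differences, neither of them called, was not tested. The partners of BAG6 had no call either, with UBL4B at -1.37, RNF126 at -0.95 and SGTA at -0.68, and a median of -0.61 over the 9 genes.

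The Duroc boars gave no call among the 10 genes in contrast (ii) by edgeR's quasi-likelihood test, its likelihood ratio test or DESeq2, and none had an unadjusted p under 0.05. Among all 13043 genes 0% were called, and 1.4% did not overlap between the groups, none of them among the 10. Differences between the boars labelled High and those labelled Low ran from -0.14 in HSPH1 to 0.08 in HSP90AB1 on the log2 scale. The intervals were wide, from -0.54 to 0.68 for HSPA2 and from -0.62 to 0.59 for BAG6.

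Within the boars labelled High, HSPA2 stood at 104.7, 50.7, 47.3, 98.8 and 93.9 CPM in D1 to D5 and BAG6 at 733, 373.5, 409, 688 and 792 CPM. D2 and D3 were low in both genes, and D1, D4 and D5 were high in both. In the boars labelled Low, D6, D7 and D9, HSPA2 stood at 61.1, 78.9 and 86.6 CPM and BAG6 at 596, 461 and 756 CPM. The spread of these genes among the Duroc boars thus ran across the labels.

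A fit with a breed by level term asked whether the day 0 difference was the same in both breeds, with the Duroc boars as labelled. The study's table names the opposite group for all of these boars but D5. The term takes its direction from the labels, so no conclusion is drawn from it. No term passed the adjusted test in the 10 genes or among all 12920 genes, where the lowest adjusted p was 0.329 in edgeR. An unadjusted p under 0.05 was found for 2 of the 10 genes and for 1946 of the 12920. The Duroc difference minus the Landrace difference was -0.63 for HSPA4 (95% interval -1.17 to -0.09), 0.90 for HSPA2 (0.04 to 1.76) and 0.76 for BAG6 (-0.01 to 1.52) on the log2 scale. The Duroc differences themselves were near 0, at -0.02 for HSPA4, 0.07 for HSPA2 and -0.01 for BAG6.

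No difference between breeds was detected in the 10 genes. None was called by edgeR's quasi-likelihood test, its likelihood ratio test or DESeq2, and none had an unadjusted p under 0.05, while 2.77% of 12835 genes were called, 1.29% of them higher and 1.48% lower in Duroc as shares of all genes, and 0.28% did not overlap. The largest difference was in HSPA4, at -0.19 on the log2 scale for Duroc minus Landrace (95% interval -0.45 to 0.06, adjusted p = 0.671 in edgeR). Its levels ran from 294.5 CPM over a median of 430.5 CPM to 695 CPM in Landrace and from 299 over 361 to 497.5 CPM in Duroc. The intervals of HSPA5 (-0.23 to 0.14) and HSP90AA1 (-0.06 to 0.30) were the narrowest. The reference genome is from a Duroc animal, and what that does to the comparison of breeds was not tested.

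Of 101 genes of the 8 other lists 3 were called between breeds, a share of 2.97% near the 2.77% of all genes. The J-domain gene DNAJC2, whose protein sits at the ribosome, was higher in Duroc by 0.56 (log2, SE 0.15, adjusted p = 0.0387 in edgeR). RPAP3 was higher by 0.52 (adjusted p = 0.0238 in edgeR), and PPID, a cyclophilin that binds HSP90, was lower, at -0.30 (adjusted p = 0.0483 in edgeR). They were named after their values were seen.

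The spread over boars set BAG6 and HSPA2 apart from the other members. In the Landrace boars the coefficient of variation was 33.2% for BAG6 and 32.7% for HSPA2, beside a median of 18.3% over the 5429 genes with a mean of at least 30 CPM. In the Duroc boars it was 27.7% and 28.5%, beside 18.1%. The next member was HSPA4 in Landrace, at 22.6%, and HSPA4L in Duroc, at 24.3%. HSP90AA1 and HSPA5 were the steadiest, at 11.7% and 15.2% in Landrace and 12.5% and 7.73% in Duroc. The lowest and the highest Landrace boar differed 3.47-fold in BAG6 (264 CPM in L13 and 917 CPM in L12) and 1.49-fold in HSP90AA1.

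Across the 21 boars the chaperones formed groups that went up and down together. All 45 pairs of the 10 genes were compared by the log2 level, and 28 had an adjusted permutation p of Pearson's r under 0.05, 15 with r above 0 and 13 below. The share among pairs of other genes was not determined, so the count does not set the chaperones apart. HSPA2 and BAG6 gave r = 0.85 and Spearman's rho = 0.88 (permutation p = 1e-05 for each, the smallest that 100000 resamples can give, adjusted p = 9e-05 and 0.00015). Within breeds r was 0.87 in Landrace (n = 13) and 0.85 in Duroc (n = 8), and without the 2 boars farthest from the median of HSPA2, L6 and L8, it was 0.82.

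The 3 HSP110 genes went together. HSPA4 and HSPH1 gave r = 0.89 and rho = 0.84 (permutation p = 1e-05 for each, adjusted p = 9e-05 and 0.00015), with 0.92 in Landrace, 0.96 in Duroc and 0.82 without L3 and L8. HSPA4 and HSPA4L gave r = 0.83 and rho = 0.72 (permutation p = 1e-05 and 0.00033, adjusted p = 9e-05 and 0.00247), with 0.88 in Landrace, 0.94 in Duroc and 0.71 without L3 and L8. Against HSPA2 the direction was opposite: for HSPA4 r was -0.76 and rho -0.69 (permutation p = 2e-05 and 0.00068, adjusted p = 0.00015 and 0.00306), with -0.78 in Landrace, -0.77 in Duroc and -0.64 without L3 and L8.

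**Figure D4:**
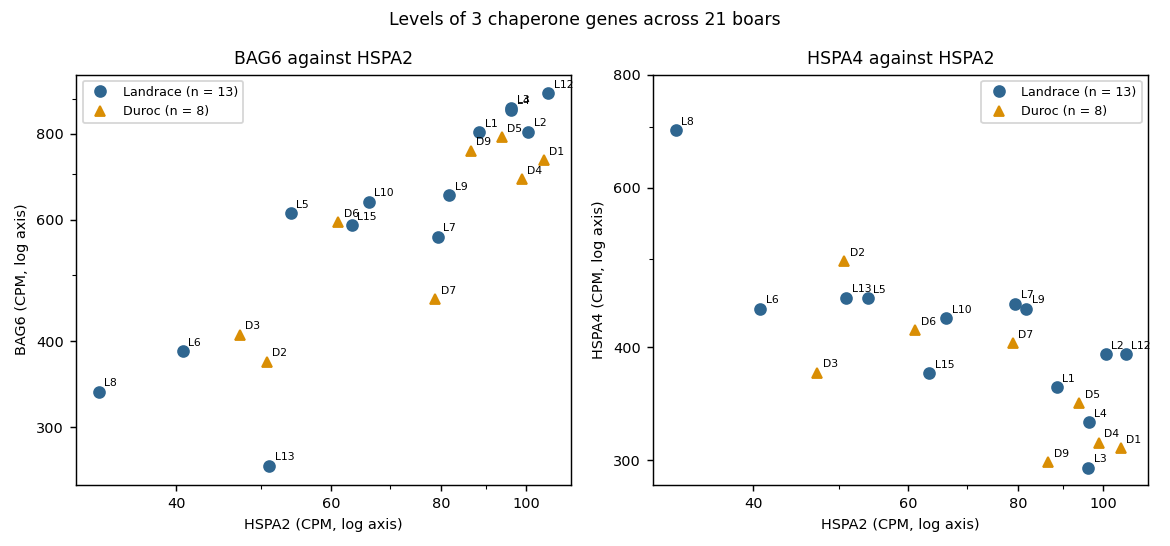
BAG6 (left) and HSPA4 (right) against HSPA2 in CPM on log axes, 1 point per boar, for 13 Landrace and 8 Duroc boars with their names. BAG6 rises with HSPA2 in both breeds (r = 0.87 and 0.85), and HSPA4 falls with it (r = -0.78 and -0.77), with L8 at the end of both plots.

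HSPA8 went with HSP90AB1, the constitutive HSP70 with the constitutive HSP90, at r = 0.83 and rho = 0.87 (permutation p = 1e-05 for each, adjusted p = 9e-05 and 0.00015), with 0.79 in Landrace, 0.92 in Duroc and 0.79 without L4 and L13. HSPA8 with HSPA5 gave r = 0.64 and rho = 0.63 over all boars (permutation p = 0.00142 and 0.00249, adjusted p = 0.00376 and 0.007), but 0.86 in Landrace and 0.08 in Duroc, a gap that was not tested. For HSPA1L with BAG6 r was 0.63 and rho 0.50 (permutation p = 0.00199 and 0.0222, adjusted p = 0.00478 and 0.0416), and it was 0.33 without L13 and D3, so that this relation rested on those boars. HSP90AA1 and HSPA2 gave r = -0.01 and rho = -0.02 (permutation p = 0.969 and 0.929, adjusted p = 0.969 and 0.929).

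Many other genes followed the same course. Among 10969 genes with a symbol, BAG6 ranked 910 in likeness to HSPA2 by r of levels centred by breed, and HSPA2 ranked 1145 in likeness to BAG6. Most like HSPA2 were NDUFV1, a subunit of respiratory complex I (r = 0.98 over 21 boars), MBD3, of the NuRD complex (r = 0.973), and C22orf23 (r = 0.972). Most like BAG6 were HMOX2, a heme oxygenase (r = 0.987), VARS1, a valyl-tRNA synthetase (r = 0.986), and SGSM2 (r = 0.983). VARS1, listed there as VARS, lies between BAG6 and HSPA1L (chr7:23886132-23899265). Among the genes near to HSPA4 were the nuclear RNA-binding gene HNRNPU (r = 0.958) and the deubiquitinase USP47 (r = 0.958), with HSPH1 at rank 30 and HSPA4L at rank 208.

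The chaperones differed in which germ cell markers they went with, as a description over the same 21 libraries. HSPA4, HSPA4L and HSPH1 followed the summed spermatocyte markers (r = 0.82, 0.88 and 0.87), and HSPA2 and BAG6 ran against them (r = -0.77 and -0.70). Without L8 and D2 these values were 0.67, 0.71, 0.77, -0.65 and -0.57. Sums of somatic markers moved with these genes too. For HSPA4, HSPA4L, HSPH1, HSPA2 and BAG6 in this order, r was -0.61, -0.76, -0.62, 0.65 and 0.3 with the Sertoli sum. With the peritubular sum it was -0.63, -0.77, -0.71, 0.53 and 0.3. HSPA1L followed the summed elongating spermatid markers, with r = 0.78 over all boars, 0.87 in Landrace and 0.58 in Duroc, and 0.47 without L13 and L15.

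Library measures moved with the same genes. The share of reads not mapped uniquely gave r = 0.84 with BAG6, 0.83 with HSPA2 and -0.83 with HSPA4 over 21 boars, and 0.94, 0.88 and -0.79 in Landrace. The log2 of the library total gave r = -0.63 with BAG6, -0.63 with HSPA2 and 0.51 with HSPA4. The TMM factor, by which the levels are scaled, gave r = -0.95 with HSPA4L, -0.81 with HSPH1 and -0.79 with HSPA4. With HSPA2 it gave 0.72 and with BAG6 0.53. Without L8 and D2 these values were -0.89, -0.66, -0.6, 0.56 and 0.27. The factor ran from 0.846 to 1.01 in the high boars of contrast (i) and from 1.01 to 1.1 in the low boars. In contrast (i) the high boars had 64052547 to 97059970 counts and the low boars 53644587 to 77217140, and with the log2 of the total as a term the differences were 0.46 for HSPA4, -0.89 for HSPA2 and -0.68 for BAG6 (adjusted p = 0.199, 0.125 and 0.127 in edgeR). Marker sums and library measures are themselves related in these libraries, and their parts were not separated.

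**Figure D5:**
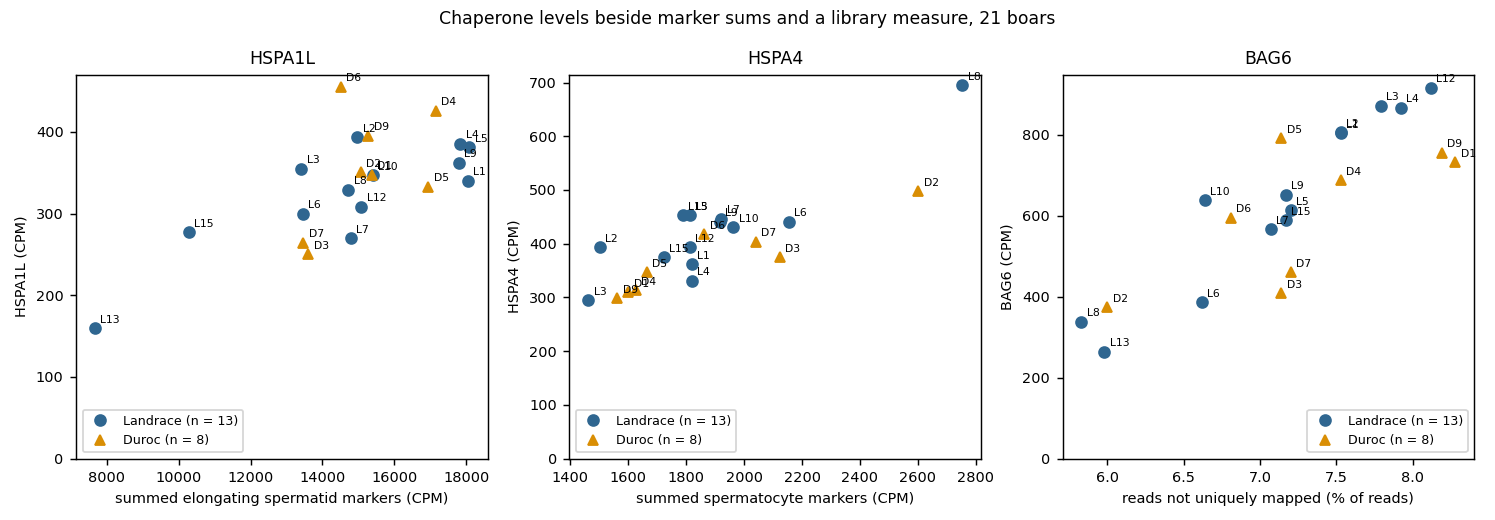
HSPA1L against the summed elongating spermatid markers, HSPA4 against the summed spermatocyte markers (both in CPM) and BAG6 against the share of reads not mapped uniquely (percent of reads), 1 point per boar, vertical axes from 0. L13 has the lowest values in the left plot (160 and 7676 CPM) and L8 the highest in the middle plot (695 and 2753 CPM), and BAG6 rises with the share of reads in the right plot (r = 0.84).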

How the data were processed

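Total RNA from testis of 21 boars was made into stranded mRNA libraries. Low-quality bases and short reads were removed by the authors (Trimmomatic 0.36), STAR placed the reads on Sscrofa11.1, and HTSeq, set to reverse strand, gave the raw counts per Ensembl gene that the authors deposited without normalization. Their own test was the likelihood ratio test of edgeR 3.12.1. The deposited labels gave the groups, and each library is a separate boar. Rows that name no gene held 29.4% to 39.0% of reads and were left out.

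For each comparison the counts of its boars were fitted by edgeR 4.0.16 (R 4.3.3). The filter required 1 CPM in 50% of the libraries, libraries were normalized by TMM, and the quasi-likelihood test was run with Benjamini-Hochberg adjustment, and genes under 0.05 were called. The likelihood ratio test, DESeq2 1.42.0, other scalings and filters, left-out boars and added terms were alternatives. Each standard error was derived from the fold change and the F statistic. Levels and correlations used TMM over all 21 libraries, with a prior count of 2 for log2 CPM, and permutation tests were two-sided. The fits were tested on simulated data. Pairs of boars in a group were checked for identical libraries, and their chi-square per degree of freedom was 48.8 or more. Symbols came from an identifier table, apart from that of HSPA2, which came from the study's gene table, and coordinates from RefSeq of Sscrofa11.1.

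All 10 members are named. From each gene list, the smallest p in contrast (i) and the highest and lowest called values decided which genes are named, and from each marker list at most the first 3 markers. Named outside this rule were TRAP1, HSF2, HSF2BP, HSBP1L1, GET1, CAMLG and SGTB. So were the markers without counts or under 1 CPM, and the genes said to be named after their values were seen. For HSPA2, HSPA4 and BAG6, the 3 most similar genes are named, apart from results not reported here. Members and lists were chosen with earlier results of these data known. No sequences are shown.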

Additional observations from a re-analysis of the deposited data

Results flagged for a closer look

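Single boars stood far from the others of their group in 5 of the 50 sets of 4 to 8 boars tested by Dixon's criterion, of which chance flags about 1 in 20. In the high group of contrast (i), L8 was high in all 3 HSP110 genes: HSPA4 was at 695 CPM (694.9) against 441 to 453 CPM in the other high boars, HSPA4L at 2972 CPM against 2060 to 2187 CPM, and HSPH1 at 251.8 CPM against 162 to 175 CPM. HSPA4L was also high in L9, at 2149 CPM against 1797 to 1834 CPM in the other boars with a low change over storage. In D2, labelled High, HSPA4L was at 3005 CPM against 1585 to 1961 CPM in the other Duroc boars labelled High. L8 and D2 also had the lowest scaling factors, 0.846 and 0.862, and the highest summed spermatocyte markers, 2753 and 2601 CPM. The part of these measures was not tested.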

How the results depend on the processing

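The differences of HSPA4, HSPA2 and BAG6 in contrast (i) kept their sign under all 23 alternatives and were called in 14, 15 and 17 of them, with adjusted p up to 1 and down to 0.00952, 0.00458 and 0.00204. HSP90AA1, not called, changed sign under 9 of 23. Of 720 values of the 10 genes under alternatives, 23 lost a call, 4 gained one and none reversed. The 3 calls of contrast (i) became 5 with DESeq2, which added HSPA4L and HSPA8, and 0 in a fit of all 13 Landrace libraries, 0 without L8 and L3 together (the lowest and highest scaling factors), 0 with the log2 library total as a term and 0 with the share of reads not mapped uniquely as a term, the last 3 chosen after seeing the data. Without 1 boar they ranged from 0 (without L3 or L6) to 4 (without L5). The 2682 genes called became 1661 at a minimum of 5 CPM and 0 in the same 4 fits, and ranged from 1 (without L3 or L6) to 3764 (without L5). Of the calls 76.7% were lower in the high group, and 62.8% with DESeq2, 90.7% with upper quartile scaling and 95.9% with library totals alone, which shifted the median of all genes to -0.12. The same 3 of the 10 genes were called there. Contrast (iii) gave 64 genes by the likelihood ratio test, 123 by DESeq2, 1 without the filter, 2 with the share of reads on no feature as a term (chosen after seeing the data) and 0 to 2 without 1 boar, and contrast (ii) gave 0 to 2. Between breeds, 355 calls became 533 with DESeq2, 554 without the filter, 225 at 5 CPM, 204 with the boars of contrast (i) and 230 with level as a term, and ranged from 258 to 473 without 1 boar. With 3 to 5 boars a group, the number of boars limited the precision. No paired analysis was possible because each library is a different boar and the labels give no pairs.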
